A study of Homo sapiens with 2 samples.

Results

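Isolated H3K4me3 peaks are regions called for the mark with no other called region nearby. Here they were chosen by the positions of the peaks in the wild-type list on chromosomes 1 to 22, and by no measure of strength. Number, chromosome and spacing of the members therefore only describe the choice. A peak was a member when no edge of another wild-type peak lay within 200 kb on either side. The rule found 964 members among 19058 wild-type peaks on these chromosomes, or 5.06%, and among 41076 deposited peaks of both lists. The study profiled trimethylation of histone H3 at lysine 4 (H3K4me3) by chromatin immunoprecipitation and sequencing in HEC-1-B cells. HEC-1-B is an established cell line from a human adenocarcinoma of the endometrium. One group was wild-type HEC-1-B cells and the other was HEC-1-B cells of genotype ZNF143KO, both grown in the same medium and precipitated with the same antibody. Each genotype was 1 library, and the labels used here do not say whether the knockout line was 1 clone. No difference between genotypes below therefore has a replicate check, and no test was made.

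H3K4me3 is written by SET1 and MLL family methyltransferase complexes and is concentrated around the start sites of active genes, most of all at promoters rich in CpG. Its regions therefore lie close together where genes are dense and far apart in gene-poor stretches. ZNF143 is a zinc finger protein that binds many promoters and has been linked to the looping of promoters to distant elements. Positions are in hg19, counted from 1. No gene is assigned to a position, since the gene tables at hand are of another build, and for the same reason no sequence is printed.

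Isolated peaks were most numerous on chromosome 2, with 104, and on chromosome 4, with 83. Chromosome 5 held 79, chromosome 6 held 76, chromosome 3 held 69 and chromosome 1 held 66. At the other end, chromosome 19 held 4, chromosome 22 held 6, chromosome 16 held 7, chromosome 21 held 13 and chromosome 17 held 14. The remaining chromosomes held between 24, on chromosome 20, and 58, on chromosome 7. Chromosomes differ in their number of peaks, so each number was also read as a share of the chromosome's own peaks.

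By that share the order changed. On chromosome 13, 11.6% of 371 peaks were isolated (exact 95% interval 8.52 to 15.3%). Chromosome 4 had 10.9% (8.80 to 13.4%) and chromosome 18 had 9.79% (6.60 to 13.8%). These intervals overlap, so the 3 chromosomes are not ordered among themselves. The lowest share was on chromosome 19, with 0.290% of 1380 peaks (0.0790 to 0.740%). Chromosome 16 had 0.789% (0.318 to 1.62%) and chromosome 17 had 1.15% (0.631 to 1.92%). Chromosome 19, the most gene-dense human chromosome, also had the closest packing of peaks, at 23.4 per Mb between its first and last peak. Chromosomes 13 and 18, which are gene-poor, had 3.87 and 3.67 per Mb. These shares describe the wild-type list and follow from the same positions that the rule used.

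**Figure D1:**
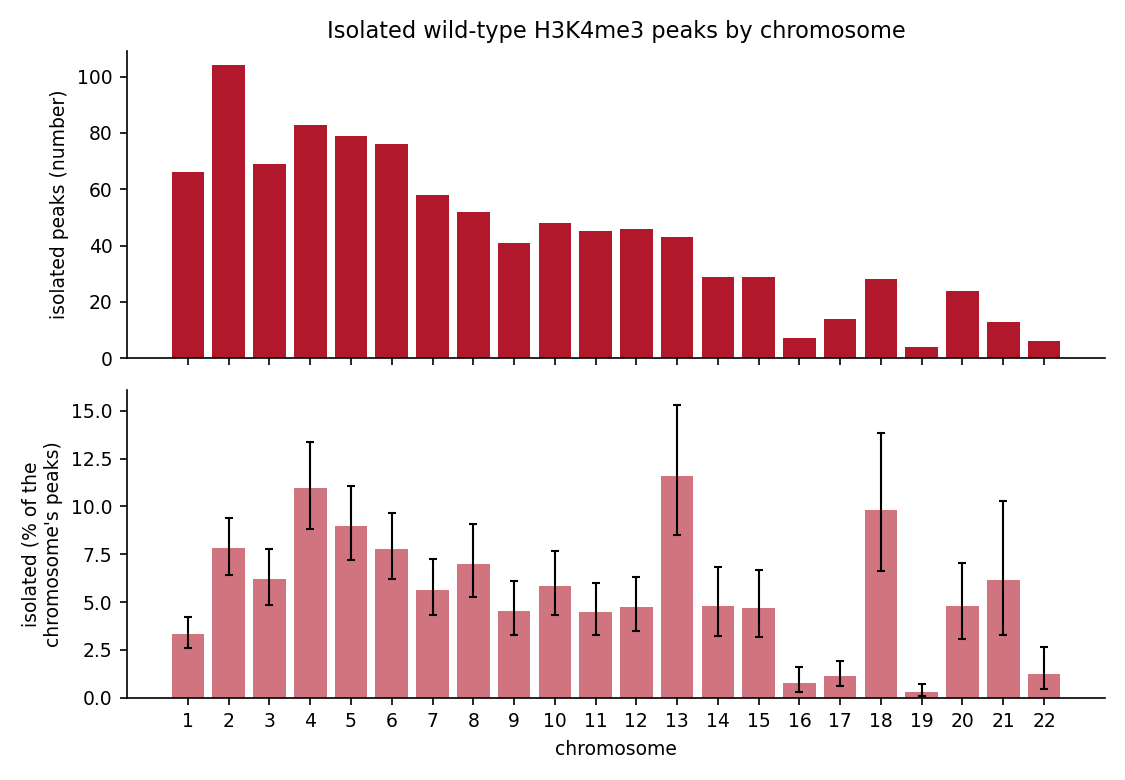
Isolated wild-type peaks on each of chromosomes 1 to 22. Upper panel, number of isolated peaks. Lower panel, isolated peaks as a percentage of the chromosome's wild-type peaks, with exact 95% binomial intervals that cover counting error only. Chromosomes 4, 13 and 18 stand highest in the lower panel and chromosomes 16, 17, 19 and 22 lowest.

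The nearest other wild-type peak lay a median of 316 kb from a member, with quartiles of 242 and 497 kb. For the other wild-type peaks the median was 10.96 kb, with quartiles of 0.316 and 41.9 kb. In 237 members the nearest peak was over 500 kb away, and in 70 it was over 1 Mb away. The larger of the 2 distances had a median of 686 kb. In 345 members at least 1 side was free of peaks for over 1 Mb. Gaps over 200 kb made up 16.3% of the 19036 gaps between neighbouring peaks, yet held 73.3% of the length between peaks. None of these distances was checked against unsequenced gaps in the genome assembly.

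**Figure D2:**
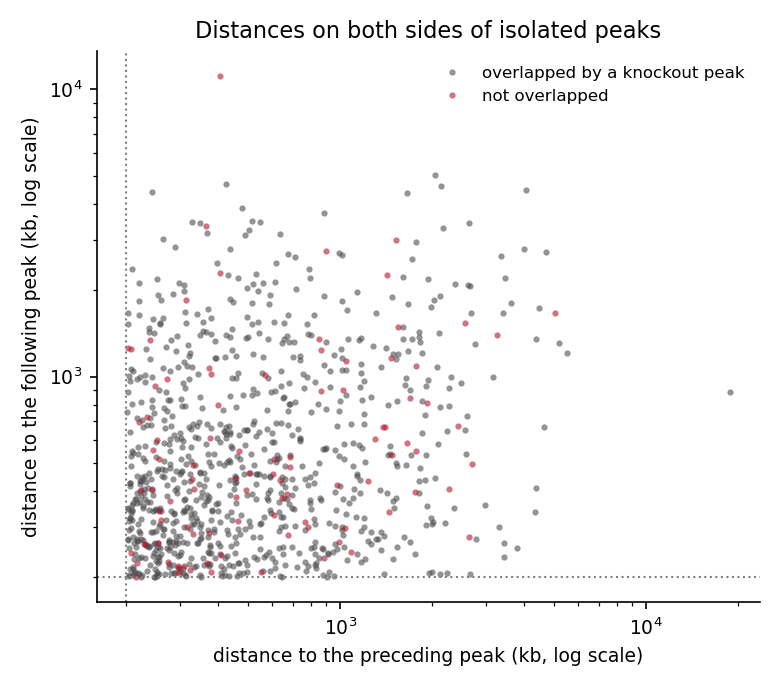
Distance from each isolated peak to the preceding and the following wild-type peak, both in kb on log scales, for members with a neighbour on each side. Grey points were overlapped by a knockout peak and red points were not, and dotted lines mark 200 kb. Points crowd toward the lower left corner, and red points are spread over the whole range of distances.

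The first or last peak of a chromosome was judged on 1 side only, which applied to 7 members. Members also followed one another. Of the 964, 424 stood singly between other peaks, and 540 belonged to 211 runs of consecutive members. Runs of 5 or more numbered 9, on 7 chromosomes. The longest held 8 members each. One ran over 4.59 Mb at chr4:90538269-95129741. The others covered 11.6 Mb at chr13:55146240-66720927 and 11.5 Mb at chr13:80298602-91764655. In each of these 3 runs, 6 of the 8 members were overlapped by a knockout peak. Rank varied within a run: in the first run on chromosome 13, members stood between the 4.78 and the 71.9 percentile by −log10 q.

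The 5 members farthest from another wild-type peak stood between the 6.52 and the 60.3 percentile by −log10 q. The farthest was chr4:62066148-62067072, 925 bp wide, with 4036 kb free on one side and 4469 kb on the other. Its fold was 9.44 and its summit pileup 24 fragments in wild-type cells, and the overlapping knockout peak had a fold of 8.41 and a pileup of 44. Pileups in fragments and local background rates, here and below, are not adjusted for depth. The knockout library was the deeper, with a ratio of lowest local rates of 2.31, so a higher knockout pileup alone shows no gain. Next came chr14:85999516-86000369, whose nearest peak was 2789 kb away. Its pileup was 73 fragments in wild-type cells and 215 in knockout cells. The third was chr18:39535150-39536133 with a nearest distance of 2723 kb. It stood at the 60.3 percentile by −log10 q in wild-type cells and at the 67.2 percentile in knockout cells. The remaining pair, chr13:85697374-85697546 and chr13:88323706-88325397, were each other's nearest peak, 2626 kb apart. They differed in kind, with widths of 173 and 1692 bp and wild-type pileups of 12 and 148 fragments. All 5 were overlapped by a knockout peak.

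At the threshold itself, the members just inside had nearest distances of 200.2 kb (chr1:178310309-178310892 and chr6:1111256-1111835) and 200.7 kb (chr2:46523935-46526136). The peaks just outside were chr4:123073003-123074318 at 199.9 kb, chr5:83017719-83018527 at 199.0 kb and chr6:157341839-157343228 at 198.8 kb. Their −log10 q percentiles were 8.29, 14.8 and 36.6 inside, and 63.9, 35.3 and 49.5 outside.

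Strength was then read from 3 measures within the wild-type list. The fold is the authors' ratio of summit pileup to local background, and the −log10 q is the authors' significance of the peak. The pileup, in fragments stacked at the summit, was recovered from the deposited columns. A percentile is the position of a peak among all 19058 wild-type peaks on chromosomes 1 to 22. All of these values belong to single peaks of 1 library.

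By fold, members sat in the middle of the list. Their median fold was 11.7 (95% interval of the median 11.1 to 12.2) against 11.5 (11.4 to 11.6) for the other peaks. The median fold percentile of members was 51.1, with quartiles of 29.5 and 75.1. By −log10 q they stood lower, at a median percentile of 39.1 with quartiles of 16.7 and 65.9. Their median pileup was 96 fragments (78 to 125) against 213 (208 to 218) for the others, which placed members at a median pileup percentile of 33.6. Fold and pileup therefore placed the same peaks differently.

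The spread among members was wide. Pileup ran from 7 to 1012 fragments, and width from 162 to 3165 bp. The 2 weakest deciles by −log10 q held 293 members, or 30.4% (27.5 to 33.4%). Decile 1 alone held 16.0% of members and 10.03% of the other peaks. In the strongest decile there were 53, or 5.50%. By fold the weakest decile held only 34 members, while each of the other 9 held between 92 and 123.

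The local background rate, the denominator of the fold, was also lower around members. It had a median of 5.66 fragments per base (4.62 to 6.84) against 18.0 (17.6 to 18.4) for the others. In 283 members, or 29.4% (26.5 to 32.3%), the rate was at the lowest value of the library, 1.40. Among the other peaks this was so for 12.6% (12.1 to 13.1%).

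The median width of members was 945 bp (888 to 997) and that of the other peaks 886 bp (876 to 896), and these intervals overlap. Over all ranks, members were not the widest group by distance. Peaks with the nearest neighbour at 50 to 200 kb had a median of 1092 bp, members at 200 to 500 kb 959 bp and members over 500 kb 895 bp. Because members had lower ranks and weak peaks are narrow, width was also compared within deciles of −log10 q. The median width of members was then the larger in all 10 deciles. In decile 3, members had a median width of 795 bp (706 to 873) and other peaks 489 bp (475 to 513). In decile 5 the medians were 1143.5 bp (1079 to 1330) and 910 bp (884 to 939), and in decile 7 they were 1476 bp (1366 to 1641) and 1188 bp (1166 to 1219). In deciles 1, 9 and 10 the intervals overlapped. Averaged over the deciles with the members' weights, median widths were 933 bp for members and 760 bp for the others. At the same rank by −log10 q, members also had the higher median fold, and the lower median pileup, in every decile. Pileup was recovered from fold and significance, so at the same rank these are not separate observations.

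**Figure D3:**
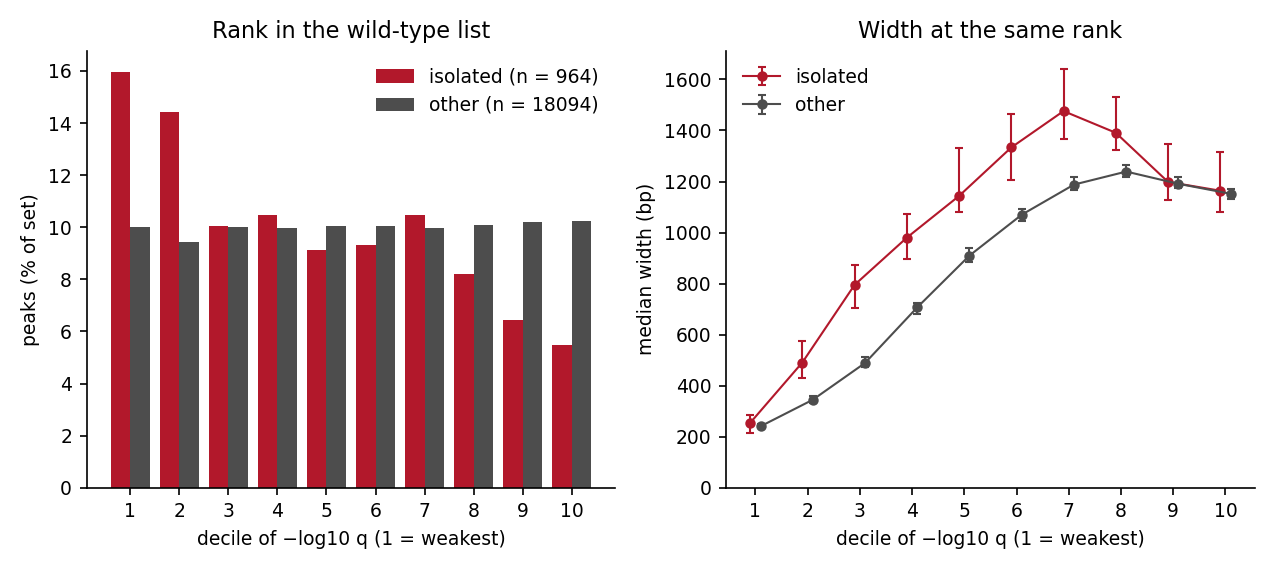
Left, share of isolated and of other wild-type peaks in each decile of −log10 q. Right, median width in bp of isolated and other peaks in each decile, with 95% intervals from order statistics. Members are over-represented in deciles 1 and 2, and from decile 2 to decile 8 their median width lies above that of the other peaks.

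Where along the scale of distance this difference arose was read from deciles 3 to 7. Peaks with a neighbour within 1 kb had a median width of 648 bp (631 to 664), and those with the nearest at 1 to 10 kb 891 bp (859 to 925). At 10 to 50 kb the median was 1019 bp (997 to 1041) and at 50 to 200 kb 1114 bp (1091 to 1148). Members at 200 to 500 kb had 1119 bp (1060 to 1193), and those over 500 kb 1107 bp (1019 to 1282). Median width was larger in each group up to 50 to 200 kb, and the intervals of members overlapped that of the 50 to 200 kb group. Rank was not equal across these groups. The median −log10 q percentile was 42.9 within 1 kb, 43.1 at 1 to 10 kb and 47.6 at 10 to 50 kb. It was 47.5 at 50 to 200 kb, 46.5 among members at 200 to 500 kb and 41.5 over 500 kb. Overlapping intervals here therefore do not show equal width at the same rank.

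Fold in these deciles had a median of 7.58 for peaks with a neighbour within 1 kb and of 11.4 at 1 to 10 kb. It was highest at 10 to 50 kb, with 14.3 (14.1 to 14.5), and lower at 50 to 200 kb, with 13.5 (13.4 to 13.8). Members at 200 to 500 kb had 13.2 (12.8 to 13.7). The local rate was 26.6 fragments per base with a neighbour within 1 kb and 11.9 at 1 to 10 kb. At 10 to 50 kb it was 8.02 (7.40 to 8.55), at 50 to 200 kb 9.30 (8.61 to 9.94) and among members at 200 to 500 kb 8.56 (7.30 to 10.02). Members over 500 kb had 6.31 (5.55 to 8.95), and both intervals of members overlap that of the 10 to 50 kb group. The part of neighbouring peaks in the local rate was not tested.

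Within the members, width went with pileup (Spearman's rho 0.81 across 964 peaks of 1 library, a description). Nearest distance went weakly with rank, with a rho of −0.13 against −log10 q, and of −0.06 against width. The summit lay near the middle of the peak, at a median of 48.4% of the width (quartiles 35.6 and 61.3%), and of 49.3% (34.3 and 64.4%) in the other peaks.

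The widest member was chr6:58776272-58779436, of 3165 bp, with no peak called for 3122 kb on one side. Whether that stretch holds a gap in the genome assembly was not checked. Its local rate of 198 fragments per base was the highest among members, so its fold was only 3.37 at a pileup of 670. The knockout peak there was 3183 bp wide with a pileup of 2035 and a rate of 598. The next widest were chr13:60969818-60972551 and chr8:71313930-71316643, with 2734 and 2714 bp. Neither had so high a rate, at 32.2 and 42.4 fragments per base. The member of highest fold, named after its value was seen, was narrow: chr4:189659529-189659756 was 228 bp wide and had 104 fragments at its summit, at a fold of 36.6. Its knockout peak was 234 bp wide with a fold of 38.8.

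The 10 strongest members by −log10 q lay on chromosomes 3, 5, 6, 7 and 19. All were between 959 and 1765 bp wide and stood at or above the 97.1 percentile of the list. First was chr5:175394345-175395324, with a −log10 q of 996, a fold of 24.8 and a pileup of 1012 fragments in wild-type cells. The knockout peak had 22.96 for fold and 1725 fragments. Its nearest wild-type peak was 231 kb away. By −log10 q it stood at the 99.96 percentile in the wild-type list and at the 99.93 percentile in the knockout list.

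Second came chr3:193310974-193312028, with a wild-type pileup of 726 fragments and a knockout pileup of 1381. The third was chr19:29702863-29704395, 1 of the 4 members on that chromosome, with 1417 kb free of peaks before it and 392 kb after it. Its pileup was 698 fragments in wild-type cells and 1332 in knockout cells, and its fold was 16.3 and 15.9. The fourth, chr3:9004276-9005471, had a fold of 21.4 in wild-type and 19.6 in knockout cells. These 4 kept their rank between the libraries to within 0.2 percentile points by −log10 q.

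The fifth, chr5:173042643-173043601, moved more. Its fold was 21.5 in wild-type cells and 17.6 in knockout cells, and by pileup it stood 11.6 points lower in the knockout list. The knockout peak was 1580 bp wide against 959 bp. The eighth, chr6:105306951-105308050, stood 9.37 points lower by pileup, with 523 fragments in wild-type and 791 in knockout cells. The other 4 of the strongest 10 were chr7:98475926-98477407, chr3:140660658-140662136, chr5:145826878-145828000 and chr3:132135835-132137599. Their wild-type pileups ran from 593 to 658 fragments, and by pileup each lay within 1 percentile point of its wild-type rank. All 10 were overlapped by a knockout peak.

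Peaks of the knockout list, which the rule did not use, were then set against the members. The lowest local rate was 3.25 fragments per base in the knockout library against 1.40 in the wild-type library, a ratio of 2.31. Of the 964 members, 867 were overlapped by a knockout peak, or 89.9% (87.9 to 91.8%), where 94.4% of all 19058 wild-type peaks were. Among the other peaks the share was 94.7% (94.3 to 95.0%). Weighted to the members' deciles of −log10 q, it was 91.8%, with a standard error of 0.217 points from counting. Matched on pileup instead, the share of the others was 90.8%, on fold 95.7% and on width 94.8%. The difference from members was thus smaller at the same −log10 q or pileup, and not at the same fold or width. What remained at the same rank by −log10 q was 1.84 points, and its direction depended on the overlap rule. When at least 50% of each peak had to overlap, 85.4% of members and 78.9% of the others at the same rank were shared. Of the overlapped other peaks, 11.7% met a knockout peak that also overlapped another wild-type peak, and 0 members did. Such long knockout peaks can fail the stricter rule, and their part in this value was not tested.

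The remaining difference lay in the weakest decile. There 73 of 154 members were overlapped, or 47.4% (39.3 to 55.6%), against 1095 of 1814 other peaks, or 60.4% (58.1 to 62.6%). In decile 2 the shares were 89.2% (82.8 to 93.8%) and 89.0% (87.4 to 90.4%), and in decile 3 they were 98.97% (94.4 to 100.0%) and 97.6% (96.8 to 98.3%). From decile 4 upward, 0 of 574 members were without a knockout peak, which allows a share of up to 0.523% (3 counts of the total). Of the other peaks in these deciles, 12 of 12767 were without one, or 0.0940% (0.0486 to 0.164%).

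**Figure D4:**
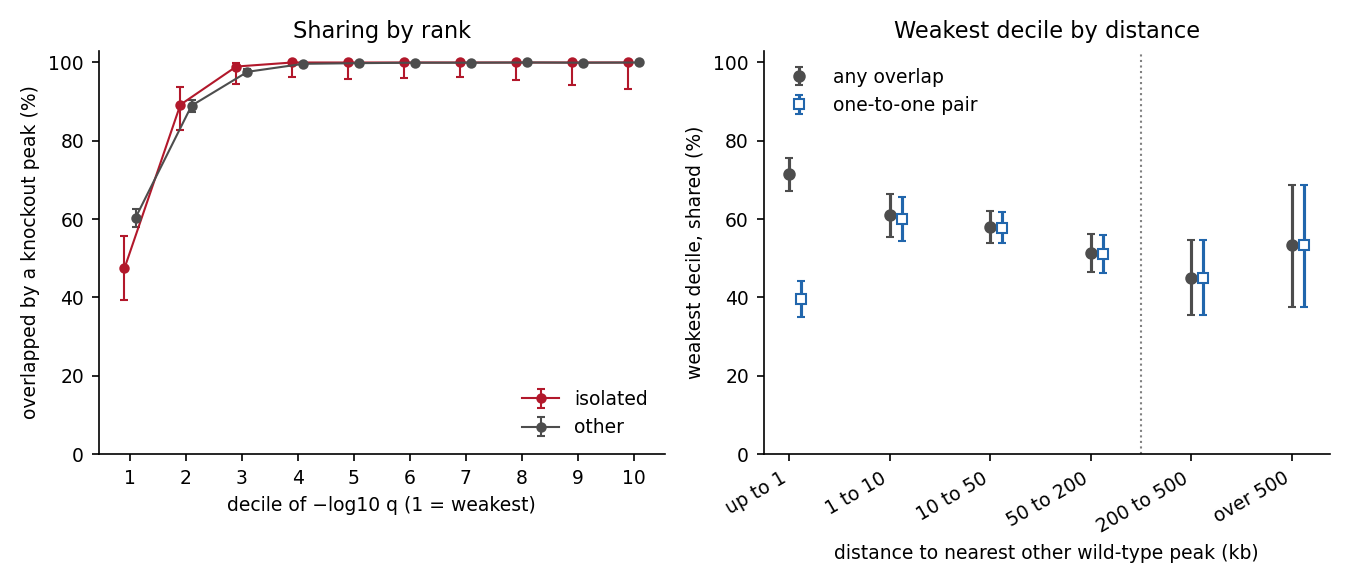
Left, percentage of isolated and of other wild-type peaks overlapped by a knockout peak in each decile of −log10 q. Right, the same percentage in the weakest decile by distance to the nearest other wild-type peak, with one-to-one pairs shown separately and the dotted line at 200 kb. Bars are exact 95% binomial intervals. Members lie below the other peaks in decile 1 alone, and in that decile overlap is most frequent for peaks with a neighbour within 1 kb.

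Within the weakest decile, sharing was read along the distance to the nearest wild-type peak. With a neighbour within 1 kb, 71.6% (67.2 to 75.7%) were overlapped, at 1 to 10 kb 61.0% (55.4 to 66.5%) and at 10 to 50 kb 58.0% (54.0 to 62.0%). At 50 to 200 kb it was 51.4% (46.6 to 56.1%), among members at 200 to 500 kb 45.0% (35.6 to 54.8%) and over 500 kb 53.5% (37.7 to 68.8%). The intervals of the last 3 groups overlap. A knockout peak that overlaps a wild-type peak next to another one can also span its neighbour. Of the overlapped peaks with a neighbour within 1 kb in this decile, 44.8% met a knockout peak that spanned at least 1 further wild-type peak. Counted as one-to-one pairs, only 39.5% (35.0 to 44.2%) of peaks with such a neighbour were matched. The distance rule all but excludes such a knockout peak for members. Without the other peaks that had a neighbour within 10 kb, the share of the others at the members' ranks was 90.8%, and the members' own interval includes that value.

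The 97 members with no overlapping knockout peak were weak and narrow. Of them, 81 were in decile 1, 15 in decile 2 and 1 in decile 3. Their pileup ran from 7 to 24 fragments with a median of 11, and their median width was 258 bp against 1024 bp for the overlapped members. This was not particular to members. The 962 other peaks with no overlapping knockout peak had a median pileup of 12 fragments and a median width of 227 bp. The lowest pileup called in the knockout library was 11 fragments. That library had the higher lowest local rate, by a ratio of 2.31, so this value is not on the scale of the members' pileups. It does not place these members at the calling limit of the knockout library. The nearest knockout peak was a median of 311 kb away, and 2 of the 97 had one within 1 kb.

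The strongest of them by −log10 q was chr8:117466330-117466709, with a pileup of 24 fragments over a rate of 1.40 and a fold of 10.4. It stood at the 20.4 percentile of the list. It was followed by chr13:59252336-59252518, with a pileup of 23 and no wild-type peak for 1485 kb on its nearer side. The next were chr5:130233035-130233739 and chr20:8789736-8790145, each with a pileup of 21, and chr2:166150547-166150807 with 20. Every member above the 20.4 percentile had a knockout peak.

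Isolation itself was compared between the lists. The knockout list held 980 peaks on chromosomes 1 to 22 that were isolated among knockout peaks by the same distance. Of the 964 members, 731 were overlapped by such a peak, or 75.8% (73.0 to 78.5%). Among all wild-type peaks, 4.83% were, a share that the members themselves largely make up. Of the 867 overlapped members, 84.3% (81.7 to 86.7%) met an isolated knockout peak, and 136 met one with another knockout peak within 200 kb. Among 17132 overlapped other peaks, 190 met an isolated knockout peak, or 1.11% (0.958 to 1.28%). By the rule each other peak had a wild-type neighbour within 200 kb, and 94.7% of other peaks were overlapped by a knockout peak. The low share among other peaks, and its contrast with members, therefore largely follow from the rule and the general overlap of the lists. Seen from the knockout side, 868 of the 980 isolated knockout peaks overlapped a wild-type peak, or 88.6% (86.4 to 90.5%).

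Knockout peaks that overlapped no wild-type peak were then counted beside members. In the 200 kb on either side of members, 370 Mb in all, lay 185 knockout peaks of this kind. They lay beside 139 members, or 14.4% (12.3 to 16.8%), a share for which no counterpart among the other peaks was counted. Their median was at the 6.11 percentile of the knockout list by −log10 q, with quartiles of 2.73 and 14.4, and their median width was 280 bp. The strongest stood at the 44.3 percentile. The 1632 such peaks elsewhere were also weak, with a median at the 8.19 percentile. The 185 beside members had a density of 0.5003 per Mb. Over the rest of the distance between the first and last wild-type peaks of the chromosomes, the density of such peaks was 0.674 per Mb.

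In 860 members the overlap was one to one, and these pairs were compared by their percentile within each list. The median shift in fold percentile, knockout minus wild type, was 0.05 points (−0.38 to 0.61). In 15028 pairs of other peaks it was −0.02 points (−0.11 to 0.06). Ranking within each list holds the median of so large a set near 0, so these medians say little about a common change. Weighted to the members' deciles, the median of the others was 0.37 points. Without ranking, the log2 pileup in knockout over wild-type cells, less the median of all pairs, was −0.035 (−0.056 to −0.015) in members and 0.0022 (−0.0039 to 0.0077) in the others. By pileup the medians were 0.59 points (0.13 to 0.98) and 1.09 points (0.98 to 1.19). Knockout peaks were the wider in 80.6% (77.8 to 83.2%) of member pairs, near the 82.1% of all pairs, with a median width ratio of 1.07.

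Rank shifts were more spread among members than among other peaks. The middle 50% of member pairs spanned 9.58 points of fold shift and that of other pairs 7.57 points. The fold percentile stayed within 10 points in 74.8% (71.7 to 77.6%) of member pairs. In pairs of other peaks it did so in 82.4% (81.8 to 83.0%), and in 79.5% when weighted to the members' deciles. A rise of over 25 points occurred in 40 member pairs, or 4.65% (3.34 to 6.28%), where 1.99% of all pairs had one. A fall of that size occurred in 20, or 2.33% (1.43 to 3.57%), against 1.38% of all pairs. In the others weighted to the members' deciles, the shares were 2.59% and 1.47%. A pair needs a called knockout peak, so a member whose signal fell below calling in knockout cells is not among the falls. The 97 members with no overlapping knockout peak are in none of these shares. Rises and falls are therefore not comparable in number. By pileup, 82.9% (80.2 to 85.4%) of member pairs stayed within 10 points, against 86.1% of the others weighted in the same way. Lower pileups carry more counting error at a given −log10 q, and the median pileup of members was the lower in every decile. The part of counting error in these shares was not tested.

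**Figure D5:**
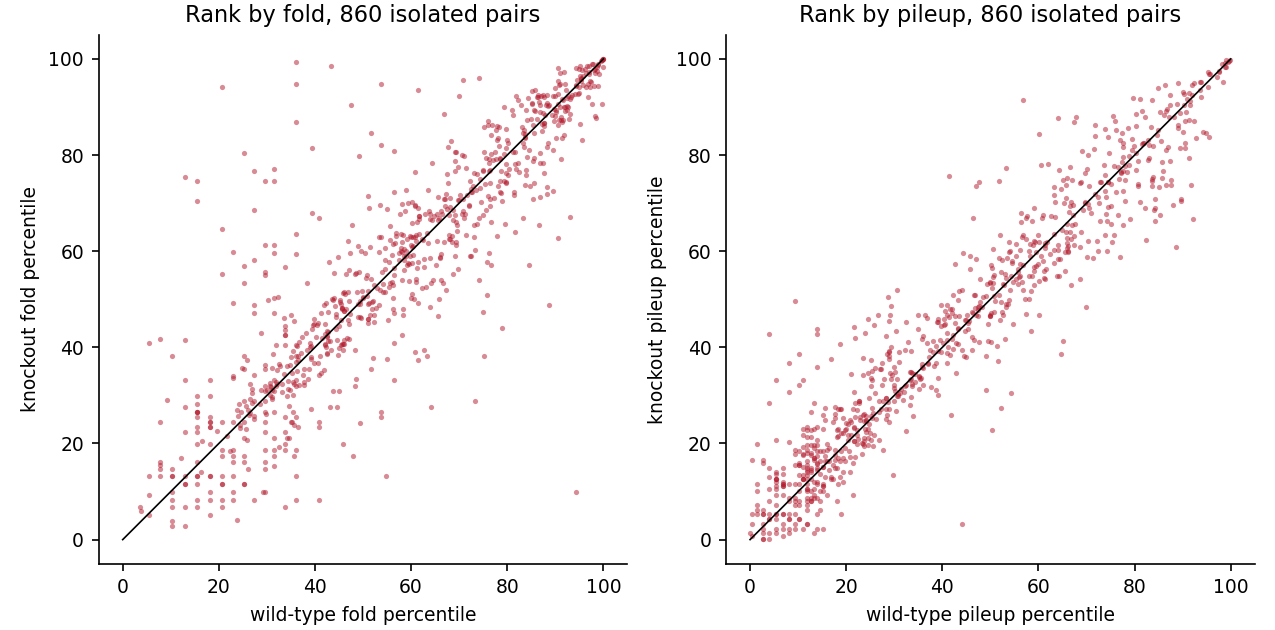
Percentile of the 860 one-to-one member pairs in the wild-type list (horizontal) and in the knockout list (vertical), by fold on the left and by pileup on the right. The line marks equal rank. Points lie along the line in both panels, with a wider scatter by fold, and a group of pairs of low wild-type fold rises far above it. Members with no overlapping knockout peak are not shown.

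The largest rise was at chr15:73660848-73661255. In wild-type cells its pileup was 14 fragments and its fold 6.24, and in knockout cells 198 fragments and 20.2. The fold percentile went from 20.7 to 94.2. The second, chr11:11268111-11268462, had 21 fragments in wild-type and 188 in knockout cells, with folds of 9.15 and 26.6. The third, chr1:198906258-198906548, had 11 and 117 fragments, with folds of 4.99 and 15.2. In all 3 the wild-type peak was among the weak ones, at or below the 17.8 percentile by −log10 q. The knockout peak was 2.32 times as wide at the first, 1.122 times at the second and 2.95 times at the third.

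The largest fall was at chr8:109799187-109800130. Its pileup was 167 fragments in wild-type cells and 16 in knockout cells, its fold 21.1 and 4.00, and its width 944 and 175 bp. This member was in decile 6 by −log10 q, and its knockout peak was at the 3.82 percentile. The second fall, at chr2:100720776-100721828, had 77 and 31 fragments and folds of 15.3 and 7.53. The third, at chr20:6514774-6515371, had 33 and 18 fragments and folds of 12.2 and 4.47. Pairs were chosen here for their shift, so its size is a description.

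Shifts by pileup differed between chromosomes, in members as in the other peaks. On chromosome 8 the median was −6.04 points over 46 member pairs and −7.46 over 558 other pairs. On chromosome 9 it was −4.89 over 32 member pairs and −4.20 over 726 others, and on chromosome 1 −3.51 over 58 and −2.16 over 1588. On chromosome 13 it was 5.85 over 37 and 6.98 over 275. Over all 22 chromosomes, the medians of members and of the other peaks had the same sign on 19. They differed in sign on chromosome 10, with −1.90 over 39 member pairs and 0.91 over 636 others. They also did so on chromosome 20, with −0.60 and 0.09, and on chromosome 21, with 1.77 and −1.29. Most medians were above 0 in both sets, so many of the 19 matching signs follow from that alone. Chromosomes 16, 19 and 22 had only 5, 4 and 6 member pairs.

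The overlapped share of members by chromosome ran from 71.4% on chromosome 16, with 5 of 7 members and an interval of 29.0 to 96.3%, to 100% on chromosomes 18, 19, 21 and 22. Chromosome 18 had the most members of these, 28 (interval 87.7 to 100%). On chromosome 20, 18 of 24 members were overlapped (interval 53.3 to 90.2%), and on chromosome 4, 79 of 83, or 95.2% (88.1 to 98.7%). With so few members per chromosome, most of these intervals overlap.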

How the data were processed

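H3K4me3 ChIP-seq was analysed from 1 wild-type and 1 ZNF143 knockout library of HEC-1-B cells, grouped by the genotype in the labels. The authors deposited 1 narrowPeak list per library. Per the submitters' processing notes, Bowtie2, SAMtools 1.12, MACS2 and deepTools and the build hg19 were used; settings and any control library are not given in the sources used here. The deposited fold (column 7) is a ratio to local background, and the deposited columns 8 and 9 are −log10 p and −log10 q. The deposited score (column 5) was not used. Read totals were not used, and precision is limited by the number of fragments at a summit.

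Pileup and local rate were solved from fold and −log10 p, with fold as pileup plus 1 over rate plus 1 and p as the Poisson tail above the pileup. The largest relative errors of p were 8.56e-06 and 1.17e-05. This solver, the isolation rule and the overlap were tested on simulated data. Percentiles are average ranks within chromosomes 1 to 22 of a list. Overlap means at least 1 bp. Intervals are exact (Clopper-Pearson) for shares and order-statistic for medians, at 95%, and cover counting error only. The rule for the regions named took the 10 strongest members, the 5 strongest unshared, the 5 farthest, the 3 widest, the 3 largest rises and falls, and 3 peaks on each side of the threshold. Members, lists and tests were chosen with earlier results of these data known. Calculations used scipy 1.17.1, pandas 2.3.3 and numpy 2.4.6 under Python 3.11.15, and plots matplotlib 3.10.9.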

Additional observations from a re-analysis of the deposited data

Results flagged for a closer look

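Chromosome X lies outside the rule, and 60 of its 667 wild-type peaks were isolated by the same distance, or 8.996% (6.93 to 11.4%). It is listed because the comparisons use none of these peaks. Of the 60, 56 were overlapped by a knockout peak, or 93.3% (83.8 to 98.2%). The knockout list held 72 isolated peaks on chromosome X among 656.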

How the results depend on the processing

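No paired analysis was possible because there was 1 library per genotype, which also leaves no replicate to omit. Of 45 alternative values, 21 stayed within the 95% interval of the reported value, or for the number within 1.5 times. Most of these values are counts, widths or shares, which cannot change sign. The alternatives with 50 bins of −log10 q, with deciles of pileup or of width, without others that had a neighbour within 10 kb, and with the shift by pileup were chosen after seeing the data.

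With a minimum distance of 100 kb there were 2415 members, with a median width of 1015 bp, a median fold percentile of 55.7 and a median −log10 q percentile of 46.5. Of these, 91.9% were shared against 93.1% of the others at the same rank, and 80.9% had an isolated knockout partner. With 500 kb there were 237 members, with median percentiles of 44.4 by fold and 30.4 by −log10 q, 90.3% of others shared and 71.7% with an isolated partner. Without members next to a gap over 1 Mb, 619 remained and the others' share was 92.3%. With −log10 q of at least 5 in both lists, the others' share was 93.1% and 78.7% of members had an isolated partner. Under a reciprocal overlap of 50%, the shared share was 85.4% of members and 78.9% of the others, and 72.3% had an isolated partner. Counting knockout peaks within 1 kb gave 93.2% of the others. Matching on fold gave 95.7%, on pileup 90.8%, on width 94.8%, and leaving out others with a neighbour within 10 kb gave 90.8%. Members were below the matched others in 11 of 12 settings, the reported one included, the exception being the reciprocal overlap. The cause of each change was not tested. Low pileups limit the weak end of both lists, where a missing partner does not show absence of the mark.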
